A study of Mus musculus with 55 samples.

Results

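Interleukin-6 and its relatives signal through a shared receptor subunit, gp130, and 10 genes of this system were followed through the regenerating mouse liver. They were the cytokine genes Il6, Osm, Lif and Clcf1, the receptor genes Il6ra, Il6st (gp130), Osmr and Lifr, the transcription factor gene Stat3 and the feedback inhibitor gene Socs3. The genes were taken by name, a rule that uses no measured value, and all 10 were found among the 24478 gene symbols of the expression table. Where a symbol had several transcript rows, the one with the largest average level was taken.

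RNA was sequenced from 10 cell populations sorted from the livers of C57B/L6 mice, either normal or after partial hepatectomy (PH, surgical removal of part of the liver, after which the remnant grows back). The populations were hepatocytes (HC), bile duct cells sorted as clonal (cBEC), as biliary epithelium (BEC) or as non-progenitor ducts (NPD), endothelium (EC), sinusoidal endothelium (LSEC), Kupffer cells (KC, the resident macrophages of the liver), stellate cells (HSC), blood cells and Thy1 cells. Normal liver gave 4 libraries each of HC, cBEC and BEC, 3 of LSEC and 2 of every other population. After PH there were 5 LSEC libraries, 4 of HC, 3 for each of HSC, KC and EC, and 2 for every other population. The labels give no genotype, sex, age or hour after surgery, and do not say which libraries came from separate animals, so the p-values below measure the spread between these libraries, which may be technical.

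In textbook outline, IL-6 binds its receptor IL-6Rα, encoded by Il6ra, and this pair recruits gp130, whereas oncostatin M and LIF bring gp130 together with the oncostatin M receptor or the LIF receptor. The kinases bound to gp130 then phosphorylate STAT3, which enters the nucleus and switches on target genes, among them the acute phase genes of hepatocytes and Socs3, whose product binds gp130 and shuts the signal off. In rodents, IL-6 from liver macrophages is a classical early signal of liver regeneration.

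Levels are in FPKM, a unit that divides the sequenced fragments of a transcript by its length and by the size of the library. Changes are differences of log2(FPKM + 1), PH minus normal, tested with limma over all genes of the population and adjusted by the Benjamini-Hochberg method. A gene passed at an adjusted p under 0.05, and was tested only where enough libraries reached 1 FPKM. The read depth is unknown. The deposited hepatocyte values are rounded and those of the other populations are not. Whether the hepatocyte libraries were processed like the others is not known. Orders that set hepatocytes against other populations carry this limit. Marker lists of 8 genes each (7 of 8 measured for mesothelial cells) were scored in every population. The population's own list scored above the other lists in 7 of 10 normal and 6 of 10 PH populations. In NPD the mesothelial score, a mean log2(FPKM + 1), was 9.30 in normal liver and 9.24 after PH, against 5.88 and 6.52 for the duct list, so NPD is used here as the name of a sort. In normal Thy1 it was 7.98 against 7.09 for the fibroblast list, and in PH Thy1 the endothelial score led with 8.19. Normal blood scored 8.36 for neutrophil and monocyte genes and 7.84 for lymphoid genes, whereas the libraries labelled PH blood scored 10.3 for Kupffer cell genes and 2.83 for lymphoid genes. PH LSEC scored 9.0 for the endothelial list and 8.47 for its own. Genes with high hepatocyte levels were more often at exactly 0 in the other populations. For widely expressed genes at 300 FPKM or more in normal HC this held for 7.81% of values in the other normal libraries, and at 10 to 30 FPKM for 0.214%.

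Across all populations, 79 of the 100 pairs of a gene and a population could be tested, and 21 passed, 11 higher and 10 lower after PH. Without blood, whose libraries go against their label after PH, 15 of 70 passed, 7 higher and 8 lower. Most passing genes came from 3 populations: 6 of 9 tested genes in NPD (15.2% of all genes tested there passed), 6 of 9 in KC (36.8%) and 6 of 9 in blood (64.0%), where the share was near that of all genes. In HC 1 of 5 passed (6.19% of all genes) and in LSEC 2 of 6 (8.46%). None passed in cBEC (0 of 8, against 0.0681% of all genes), BEC (0 of 8, 1.81%), EC (0 of 8, 0.0249%), HSC (0 of 7, 0.00853%) or Thy1 (0 of 10, 0.00747%) with limma. Unadjusted p was under 0.05 for 2 genes in cBEC (10.2% of all genes), 2 in BEC (16.3%) and 3 each in EC (10.8%), HSC (8.48%) and Thy1 (18.1%). The median change of the tested genes was 1.13 in NPD against 0.09 for all genes, -2.3 in KC against -0.04, and 0.87 in blood against -0.31. In HSC, where none passed, it was 1.18 against 0.03, and in Thy1 0.63 against -0.06. It was 0.46 in BEC against -0.12, 0.42 in LSEC against -0.03 and 0.38 in EC against 0.02. In cBEC it was 0.29 against -0.11, and in HC 0.03 against -0.07.

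**Figure D1:**
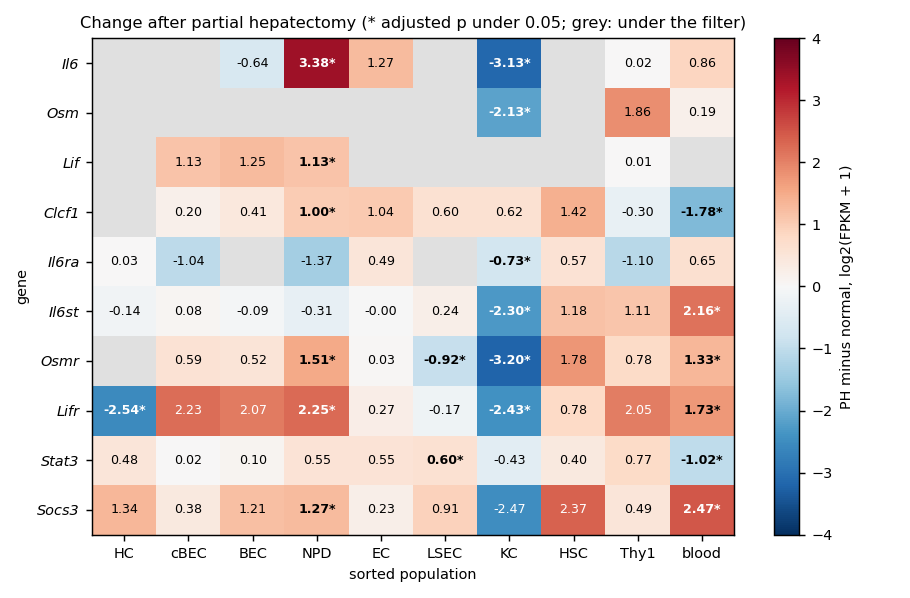
Change of each gene after PH in each population, as PH minus normal on the log2(FPKM + 1) scale; asterisks mark adjusted p under 0.05 (limma) and grey cells were under the filter. The 6 marked values in KC are all negative and the 6 in NPD all positive.

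The promoters of Socs3, Il6 and Lif are shown because these genes stand at the output and the input of the circuit, and because each holds motif matches. The 250 bases before the RefSeq start (GRCm38.p6) are printed 5′ to 3′ on the gene's strand, with matches in capitals. The motifs searched on both strands were TTCNNNGAA (STAT), TGANTCA (AP-1), TTNNGCAA (C/EBP) and, for NF-kB, GGG and TCC parted by 4 bases of any kind. The STAT and AP-1 letters read the same on both strands. Windows were found for 8 of the 10 genes.
Socs3 promoter, chr11:117969367-117969616, minus strand: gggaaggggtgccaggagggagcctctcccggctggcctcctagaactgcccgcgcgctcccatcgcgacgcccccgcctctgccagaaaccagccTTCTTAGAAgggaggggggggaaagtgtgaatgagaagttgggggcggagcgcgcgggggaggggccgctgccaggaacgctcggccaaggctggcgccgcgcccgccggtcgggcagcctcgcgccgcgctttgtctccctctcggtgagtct
Il6 promoter, chr5:30012864-30013113, plus strand: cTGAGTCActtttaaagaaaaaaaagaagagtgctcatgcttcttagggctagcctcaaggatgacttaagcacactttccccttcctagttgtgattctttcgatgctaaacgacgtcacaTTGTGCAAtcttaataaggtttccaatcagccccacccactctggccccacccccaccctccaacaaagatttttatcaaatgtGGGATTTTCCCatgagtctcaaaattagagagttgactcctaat
Lif promoter, chr11:4257318-4257567, plus strand: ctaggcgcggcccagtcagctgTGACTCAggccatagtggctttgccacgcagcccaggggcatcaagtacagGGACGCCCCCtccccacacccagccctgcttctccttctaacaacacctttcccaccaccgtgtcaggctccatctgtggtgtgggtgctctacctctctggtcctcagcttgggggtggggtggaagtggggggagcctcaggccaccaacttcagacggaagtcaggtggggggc

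In the Socs3 window the capitals are a STAT match, 154 to 146 bases before the start, and 7.02% of all 32851 windows hold such a match. The Il6 window holds, in order, an AP-1 match, a C/EBP match and a pair of overlapping NF-kB matches on opposite strands, 44 to 34 bases before the start. The Lif window holds an AP-1 match and an NF-kB match on the minus strand. Of all windows, 6.75% hold the AP-1 letters, 9.56% the C/EBP letters and 16.5% the NF-kB letters. Among the 8 genes with windows, STAT letters occurred for Socs3 alone and C/EBP letters for Il6 alone, AP-1 letters for Il6 and Lif, and NF-kB letters for Il6, Lif and Il6ra. A match describes the letters, not binding.

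Il6, encoding interleukin-6 (chr5:30339653-30346515 in mm9, the build named in the submitters' processing notes), was found mainly in KC and Thy1 cells of normal liver, and its levels in KC and NPD moved in opposite directions after PH. In normal KC the libraries read 40.3 and 33.4 FPKM, and in PH KC 2.80, 1.26 and 8.33. The groups did not overlap, and Il6 fell by 3.13 on the log2 scale (SE 0.59, adjusted p = 0.0124). In NPD the normal libraries read 3.64 and 1.57 FPKM and the PH libraries 32.2 and 37.7. Both PH libraries lay far above both normal ones, and Il6 rose by 3.38 (SE 0.33, adjusted p = 0.00962).

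Thy1 cells held Il6 at 21.5 and 47.0 FPKM in normal liver and at 76.1 and 13.4 after PH, so the groups overlapped, with a change of 0.02 (SE 0.85, adjusted p = 0.993). In EC the levels were low, 0.482 and 1.63 FPKM in normal and 2.33 to 5.41 in PH libraries, with a change of 1.27 that did not pass (adjusted p = 0.369). Hepatocytes and stellate cells had almost no Il6 transcript. It was listed at 0 in all 5 HSC libraries and in 7 of 8 HC libraries, the other reading 0.04 FPKM. In normal liver KC (mean 36.8 FPKM) and Thy1 (34.2) could not be ordered, and both stood clear of NPD (2.60), the next population. After PH the order was Thy1 (44.7) and NPD (34.9), which overlapped.

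The calls for Il6 rest on few libraries. Without normal KC library 1 or 2 the change in KC was -2.997 or -3.259. Without PH NPD library 1 or 2 that in NPD was 3.486 or 3.265. These fits leave 1 library in a group, and the calls were lost. The list of neutrophil and monocyte genes (0 of 8 at 0 throughout) summed to 57.9 to 84.1 FPKM in normal KC and 50.1 to 185 in PH KC, and its part in the cytokine values was not tested.

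Osm, encoding oncostatin M, was highest in blood, followed by KC in normal liver and by Thy1 cells after PH. Blood read 12.1 and 18.0 FPKM in normal liver, clear of every other normal population, and the libraries labelled PH blood read 20.8 and 13.9, again clear of the rest. These groups overlapped, with a change of 0.19 (adjusted p = 0.585). In KC, Osm read 2.96 and 9.95 FPKM in normal and 0.136, 0.201 and 1.48 in PH libraries, without overlap. It fell by 2.13 in KC (SE 0.56, adjusted p = 0.0333). This call was lost without normal KC library 1 (0.0559) or 2 (0.172) and without PH KC library 1 (0.0849) or 2 (0.0867).

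In Thy1 cells Osm read 0 and 0.65 FPKM in normal and 7.05 and 1.69 in PH libraries, with a change of 1.86 that did not pass (adjusted p = 0.242). Normal EC read 3.29 and 0 FPKM, overlapping normal KC, and PH EC at most 0.472. In HC, BEC, NPD and LSEC no library exceeded 0.882 FPKM. Osm lies beside Lif on chromosome 11 (mm9 chr11:4136787-4141029 and chr11:4157570-4172517), but the cells that held the neighbouring genes differed.

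Lif, encoding leukemia inhibitory factor, was highest in cBEC and BEC, although Thy1 cells overlapped with both in normal liver and stood above NPD. The 4 normal cBEC libraries read 7.02, 6.76, 7.52 and 3.5 FPKM and the PH ones 17.8 and 11.6. In BEC the normal values were 6.48, 8.46, 5.04 and 4.54 FPKM and the PH values 17.3 and 14.0. In NPD they were 3.60 and 2.45 against 8.29 and 7.13. PH libraries were higher than normal ones without overlap in all 3 populations, but only NPD passed.

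**Figure D2:**
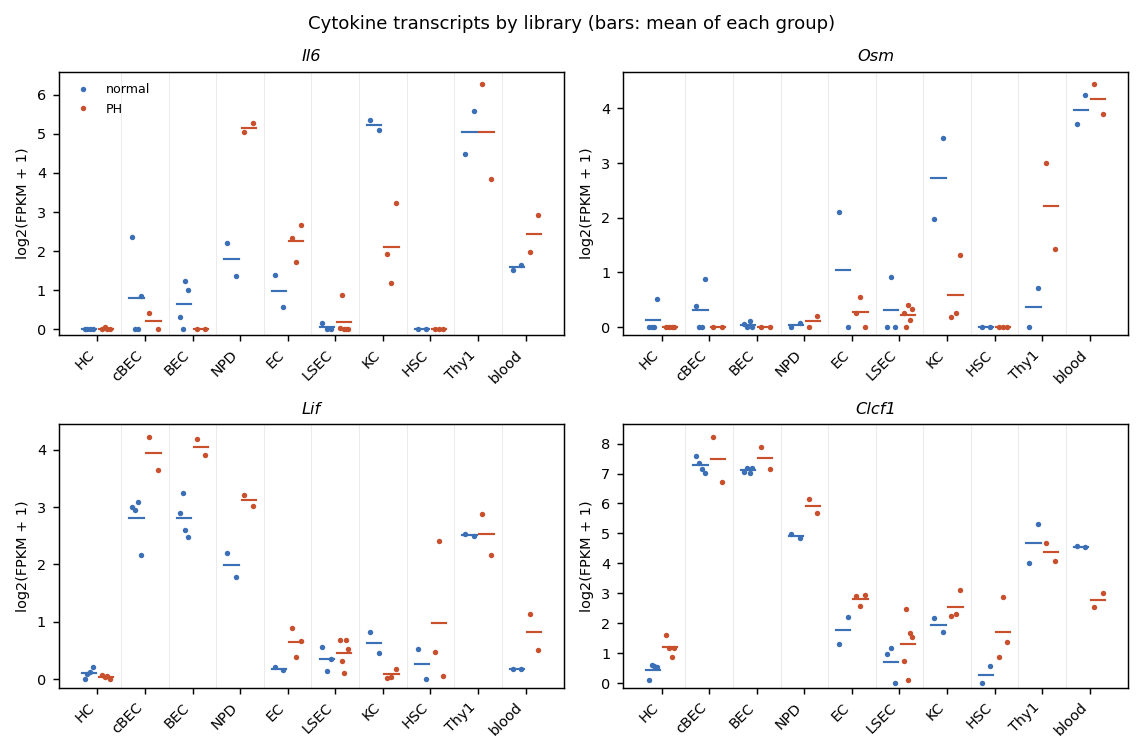
Transcript levels of the cytokine genes in each library, as log2(FPKM + 1), by population (HC to blood), with normal libraries in blue, PH libraries in red and bars at group means. Il6 is high in normal KC and in PH NPD, Osm in blood, and Lif and Clcf1 in cBEC and BEC.

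The rise of Lif in NPD was 1.13 (SE 0.26, adjusted p = 0.0468). The change was 1.25 in BEC (SE 0.25, adjusted p = 0.0512) and 1.13 in cBEC (SE 0.32, adjusted p = 0.37). The BEC value crossed the threshold without normal library 2 (adjusted p = 0.0185) and with a pseudocount of 0.1 (0.0371). The NPD value lost its call without PH library 1 (0.44) or 2 (0.391) and with that pseudocount (0.052). In Thy1 Lif stood at 4.66 and 4.79 FPKM in normal and 3.49 and 6.39 in PH libraries. Elsewhere every library was below 1 FPKM, apart from 1 PH HSC library at 4.32 and 1 PH blood library at 1.21.

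Clcf1 encodes cardiotrophin-like cytokine factor 1, a ligand of the ciliary neurotrophic factor receptor complex, and was highest in cBEC and BEC. Normal cBEC ranged from 129 to 189 FPKM and normal BEC from 130 to 145, with no overlap with NPD (30.3 and 28), Thy1 (15.3 and 38.8) or blood (23.1 and 22.2). Normal and PH levels overlapped, at 105 and 299 FPKM in cBEC and 142 and 237 in BEC, and did not pass. In NPD Clcf1 reached 70.4 and 50.1 FPKM after PH, a rise of 1.0 (SE 0.21, adjusted p = 0.0389), which was lost without PH NPD library 1 (0.37) or 2 (0.288) or normal library 2 (0.0701). In the blood libraries it fell by 1.78 (SE 0.22, adjusted p = 0.00287), to 4.85 and 7.11 FPKM.

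Clcf1 was also low in hepatocytes, where 0.08 to 0.51 FPKM in normal and 0.82 to 2.05 in PH libraries did not overlap. It was under the filter there and was not tested.

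Il6st, encoding gp130, was present in all 55 libraries, at very different levels. EC held 1175 and 1242 FPKM in normal liver and stood clear of LSEC, at 706 to 879, while hepatocytes held 11.5 to 25.1. Stellate cells came next, at 397 and 602 FPKM, then Thy1, KC and NPD. Hepatocytes thus had the lowest gp130 transcript level of the 10 normal populations, on the values as deposited. PH hepatocytes read 11.9 to 24.7 FPKM, overlapping normal ones, with a change of -0.14 (SE 0.31, adjusted p = 0.841).

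In KC, Il6st read 209 and 295 FPKM in normal and 44.3, 36.7 and 75.6 in PH libraries. It fell by 2.3 (SE 0.34, adjusted p = 0.00594), a call lost without normal library 2 (0.067). In HSC it read 397 and 602 FPKM in normal and 1134, 1010 and 1188 in PH libraries, without overlap. The change of 1.18 in HSC did not pass (SE 0.28, adjusted p = 0.398), and it passed when all groups shared 1 estimate of spread (0.0234). In the blood libraries it read 123 and 142 FPKM in normal and 824 and 429 in PH, and rose by 2.16 (SE 0.35, adjusted p = 0.00608). EC read 1116 to 1265 FPKM after PH, a change of -0.00406 (SE 0.20).

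Il6ra, encoding the IL-6 binding subunit, followed another order. Normal KC read 54.3 and 53.7 FPKM and normal NPD 33.3 and 71.4, and these overlapped. Thy1 (10.6 and 30.2) and blood (19.2 and 20.6) came next, and hepatocytes, the classical responders to IL-6, read 2.27 to 8.77. Il6ra was the only one of the 10 genes whose response was not shown to differ between populations (adjusted p = 0.0828, limma F test).

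Il6ra in KC read 29.1, 26.7 and 42.7 FPKM after PH, all below the normal libraries. It fell by 0.73 (SE 0.22, adjusted p = 0.0486), close to the threshold, and 10 of 15 alternatives lost the call, among them leaving out normal library 1 (0.212) or 2 (0.194) or PH library 1 (0.131) or 2 (0.11). In NPD the PH libraries read 15.9 and 21.0 FPKM, a change of -1.37 (SE 0.38, adjusted p = 0.0715). The Kupffer list in NPD summed to 151 to 312 FPKM in normal and 21.3 to 30.5 in PH libraries, with 0 of 8 markers at 0 in all libraries of a group, and its part in the Il6ra values was not tested. Hepatocytes showed overlapping values after PH, 2.33 to 11.6 FPKM, with a change of 0.03 (SE 0.46).

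Osmr, encoding the oncostatin M receptor subunit, had the smallest adjusted p of the 10 for responses that differ between populations (1.57e-12, limma F test). In KC it read 14.9 and 18.2 FPKM in normal and 0.862, 0.367 and 1.73 in PH libraries. It fell by 3.2 (SE 0.33, adjusted p = 0.00225) and passed in all 15 alternatives run there. In NPD it read 20.1 and 21.5 FPKM in normal and 61.3 and 60.5 in PH libraries, a rise of 1.51 (SE 0.15, adjusted p = 0.00962). This SE was the smallest of the 9 genes tested in NPD. Without PH library 1 or 2, which leaves 1 PH library, the change was 1.497 or 1.516 and the call was lost.

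In LSEC, Osmr read 64.2, 48.7 and 44.2 FPKM in normal and 28.5, 31.6, 33.2, 17.6 and 26.1 in PH libraries. All 5 PH libraries lay below all 3 normal ones, and Osmr fell by 0.92 (SE 0.22, adjusted p = 0.0293). The call was lost without normal library 1 (0.127) or 2 (0.0789) and without PH library 1 (0.0628) or 5 (0.0624). Over the same libraries the LSEC marker list (0 of 8 at 0) summed to 5946 to 11520 FPKM in normal and 1842 to 6611 in PH libraries, whereas the endothelial list (0 of 8 at 0) summed to 4485 to 5149 and 4409 to 4913. Their part in the change of Osmr was not tested. In bulk libraries of a sorted population, fewer cells of a type and less RNA per cell cannot be told apart.

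In HSC the direction was the other way. Osmr read 34.0 and 23.1 FPKM in normal and 117, 80.3 and 103 in PH HSC, and PH HSC stood clear of every other PH population. The change of 1.78 did not pass in the fit of HSC alone (SE 0.32, adjusted p = 0.231), where 1 of 11729 genes passed, but did when all groups shared 1 estimate of spread (2.06e-05). In the blood libraries it rose by 1.33 (SE 0.37, adjusted p = 0.0313), from 3.92 and 5.59 to 9.29 and 18.8 FPKM, a call lost without either normal library (0.211 and 0.131) or PH library 1 (0.0606). In hepatocytes Osmr was at most 0.08 FPKM in normal and 0.37 to 1.14 in PH libraries. These groups did not overlap, yet the gene stayed under the filter.

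**Figure D3:**
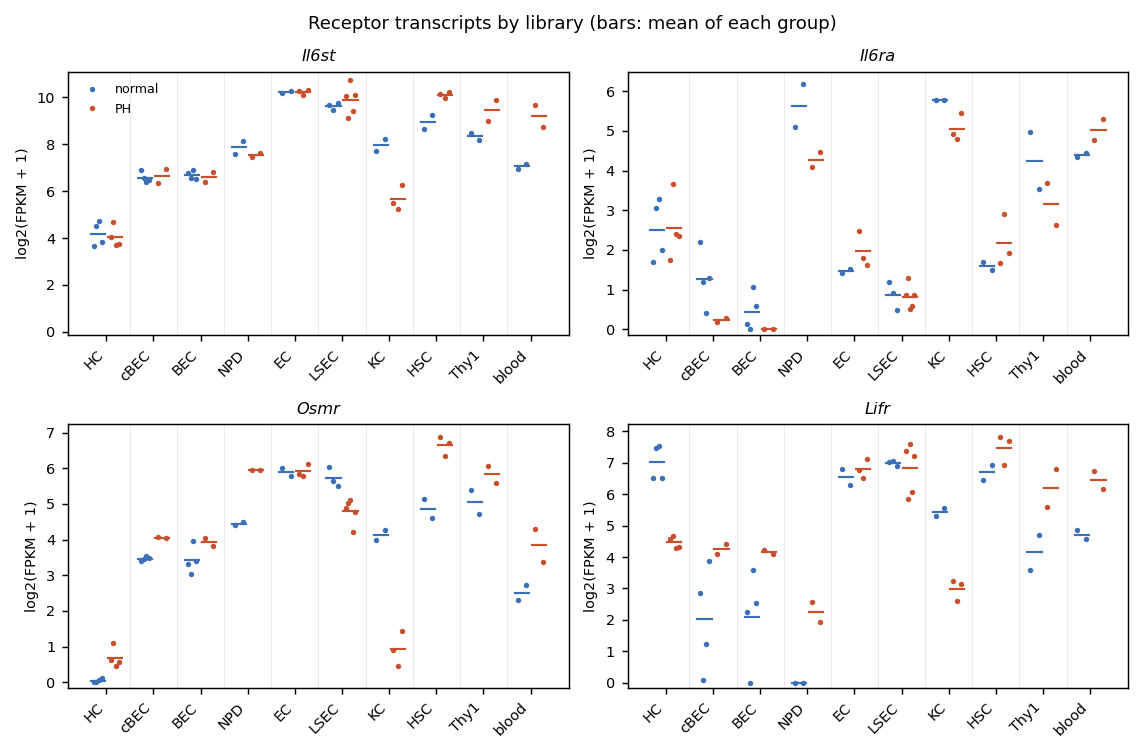
Transcript levels of the receptor genes in each library, as log2(FPKM + 1), by population, with normal libraries in blue, PH libraries in red and bars at group means. Il6st is lowest in HC and highest in EC, Osmr is lower in PH than in normal KC and LSEC, and Lifr is lower in PH than in normal HC and KC.

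Lifr, encoding the LIF receptor, lies next to Osmr on chromosome 15 (mm9 chr15:7079571-7135343 and chr15:6763576-6824313) and was the only gene of the 10 to pass in hepatocytes. Normal HC read 90.8, 175, 185 and 90.3 FPKM and PH HC 22.9, 24.3, 18.6 and 19.0. All PH libraries lay far below all normal ones. Lifr fell by 2.54 (SE 0.28, adjusted p = 0.000866), and in all 17 alternatives run it still passed, with changes from -2.71 to -1.94. In the HC libraries the LSEC list (0 of 8 at 0) summed to 2.67 to 13.4 FPKM in normal and 5.24 to 49.9 in PH libraries, and the Kupffer list (0 of 8 at 0) to 0.30 to 10.3 and 4.61 to 130. The hepatocyte list summed to 91290 to 97040 FPKM and 66710 to 98020.

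Lifr was also lower in KC, at 38.1 and 45.8 FPKM in normal and 8.37, 5.01 and 7.92 in PH libraries. It fell by 2.43 there (SE 0.24, adjusted p = 0.00205) and passed in all 14 alternatives run. Endothelial levels overlapped, at 118 to 132 FPKM in normal and 56.4 to 192 in PH LSEC. In HSC 86.4 and 120 FPKM in normal met 120 to 225 after PH, a change of 0.78 (adjusted p = 0.606). On the transcript row used, HC (mean 135 FPKM), LSEC (126) and HSC (103) could not be ordered in normal liver. On that row HC averaged 21.2 FPKM after PH, with only NPD, KC, BEC and cBEC lower. The order depended on the row. On the other row of Lifr normal HC averaged 39.2 FPKM, under HSC (123), LSEC (113), EC (86) and blood (42.9).

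The table has 2 transcript rows for Lifr, and they parted in some populations. The row used, NM_001113386, starts upstream of the other, NM_013584, and also ends before it, at 7135343 against 7147489. Neither row spans the other, so the level on the row used is not that of the whole gene. In normal HC the row used averaged 135 FPKM and the other 39.2, and in PH HC 21.2 and 9.0, so both were lower after PH. In normal cBEC the row used averaged 5.35 FPKM and the other 15.2, whereas after PH they averaged 18.2 and 19.7. In normal NPD the row used was listed at 0 in both libraries while the other read 3.03 and 2.71 FPKM. For widely expressed genes at 100 to 300 FPKM in normal HC, 3.02% of values in the other normal libraries were 0. The cause of the Lifr zeros was not tested. After PH the NPD libraries read 2.80 and 4.95 on the row used.

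The apparent rise of Lifr in NPD on the row used was 2.25 (SE 0.35, adjusted p = 0.0199), and with the other row it was 0.33 (adjusted p = 0.513). With the rows summed it was 1.15 (0.0748), and leaving out PH library 1 or 2 also ended the call (0.368 and 0.294). In blood the rise was 1.73 (SE 0.24, adjusted p = 0.00412) with the row used, from 22.6 and 28.2 to 71.1 and 104 FPKM, but only 0.71 (adjusted p = 0.0497) with the other row, whose means were 42.9 and 71.4. For every other gene with several rows, the rows differed by at most 0.34 on the log2 scale in any library.

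**Figure D4:**
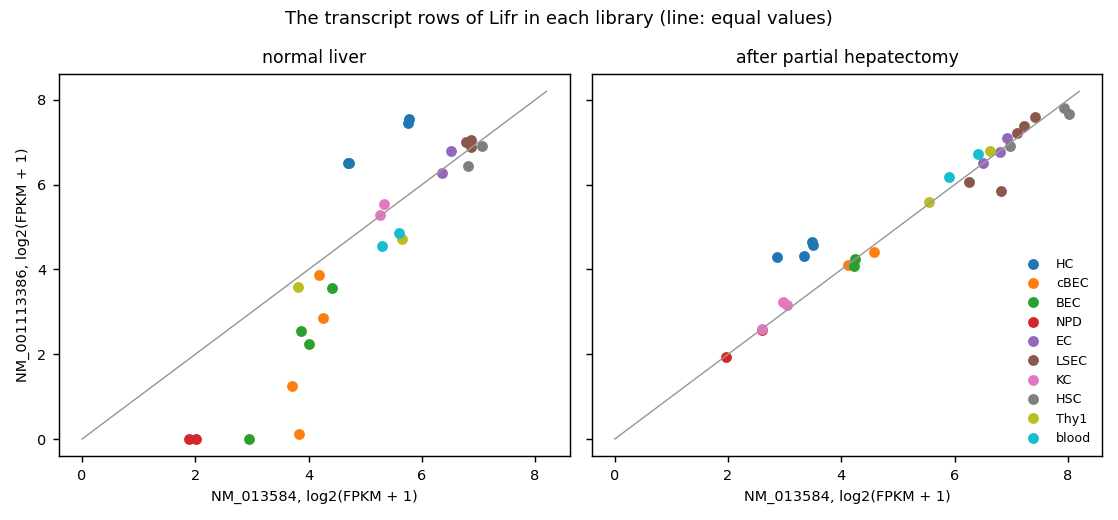
The 2 transcript rows of Lifr in each library, as log2(FPKM + 1), for normal (left) and PH liver (right), 1 point per library coloured by population; the line marks equal values. HC lies above the line in both panels, while normal NPD, cBEC and BEC lie below it.

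Stat3, encoding the transcription factor that carries the gp130 signal, had normal means from 25.1 FPKM in HC to 157 in blood, the smallest ratio of highest to lowest mean among the 10 genes. In LSEC it read 64.3, 53.2 and 52.9 FPKM in normal and 94.7, 74.4, 91.1, 84.8 and 88.2 in PH libraries. The groups did not overlap, and Stat3 rose by 0.60 (SE 0.14, adjusted p = 0.0318). Leaving out any normal LSEC library (0.0638, 0.111 and 0.0836) or PH library 1, 4 or 5 (0.0897, 0.0584 and 0.0704) lost the call.

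In HC, Stat3 read 24.1, 26.7, 26.7 and 22.7 FPKM in normal and 15.7, 53.3, 47.6 and 38.7 in PH libraries. PH library 1 lay below every normal library and the other 3 above, giving a change of 0.48 that did not pass (SE 0.34, adjusted p = 0.459). Without that library the change was 0.86 (adjusted p = 0.0223). PH means were also above normal without overlap in NPD (81.9 to 120 FPKM), EC (64.3 to 96.1), HSC (69.5 to 91.7) and Thy1 (64.2 to 107), and none of these passed. In the blood libraries Stat3 fell by 1.02 (SE 0.19, adjusted p = 0.00932), from 160 and 154 to 88.7 and 66.6 FPKM.

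Socs3, the inhibitor that STAT3 induces, varied widely between replicates. In NPD it read 101 and 59.6 FPKM in normal and 197 and 181 in PH libraries, and rose by 1.27 (SE 0.29, adjusted p = 0.0453). Without PH library 1 or 2 the adjusted p was 0.353 or 0.366. In HC the normal libraries split, with 4.25 and 4.38 FPKM in libraries 1 and 4 and 25.5 and 23.6 in libraries 2 and 3. PH HC read 25.9, 40.5, 27.1 and 23.4 FPKM, so the groups overlapped and the change of 1.34 did not pass (SE 0.55, adjusted p = 0.189).

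In HSC, Socs3 read 25.4 and 18.3 FPKM in normal and 115, 96.5 and 138 in PH libraries, without overlap. This change of 2.37 was the largest of any tested gene of the 10 in HSC and did not pass (SE 0.31, adjusted p = 0.124). In KC it read 46.5 and 80.4 FPKM in normal and 6.39, 5.14 and 30.5 in PH libraries, a change of -2.47 just short of the threshold (SE 0.75, adjusted p = 0.0507). Without PH KC library 3, the highest, it was -3.21 (adjusted p = 0.000634). In the blood libraries Socs3 rose by 2.47 (SE 0.64, adjusted p = 0.0246), from 26.0 and 26.6 to 295 and 76.5 FPKM.

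Single libraries carried much of the Socs3 level in ducts and endothelium. PH library 1 read 206 FPKM in cBEC against 27.5 in the other, 203 against 32.0 in BEC, and 357 in LSEC against 62.8 to 254. Normal cBEC library 1 read 175 FPKM against 29.4 to 52.0. Fos, an immediate early gene, was also highest in those libraries, at 2463 FPKM in PH cBEC library 1 against 1279, 2572 in PH BEC library 1 against 1354, 951 in PH LSEC library 1 against 123 to 591, and 2293 in normal cBEC library 1 against 1004 to 1279. In KC Fos fell by 3.61 (SE 0.34, adjusted p = 0.00187), from 793 and 1018 FPKM to 61.5, 54.9 and 114. In normal cBEC library 1 the duct list (0 of 8 at 0) summed to 9965 FPKM, against 16070 to 19960 in the others. The fibroblast list (0 of 8 at 0) summed to 156 FPKM there, against 27.4 to 41.8. The part of early gene induction or of cell composition in the Socs3 values was not tested.

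**Figure D5:**
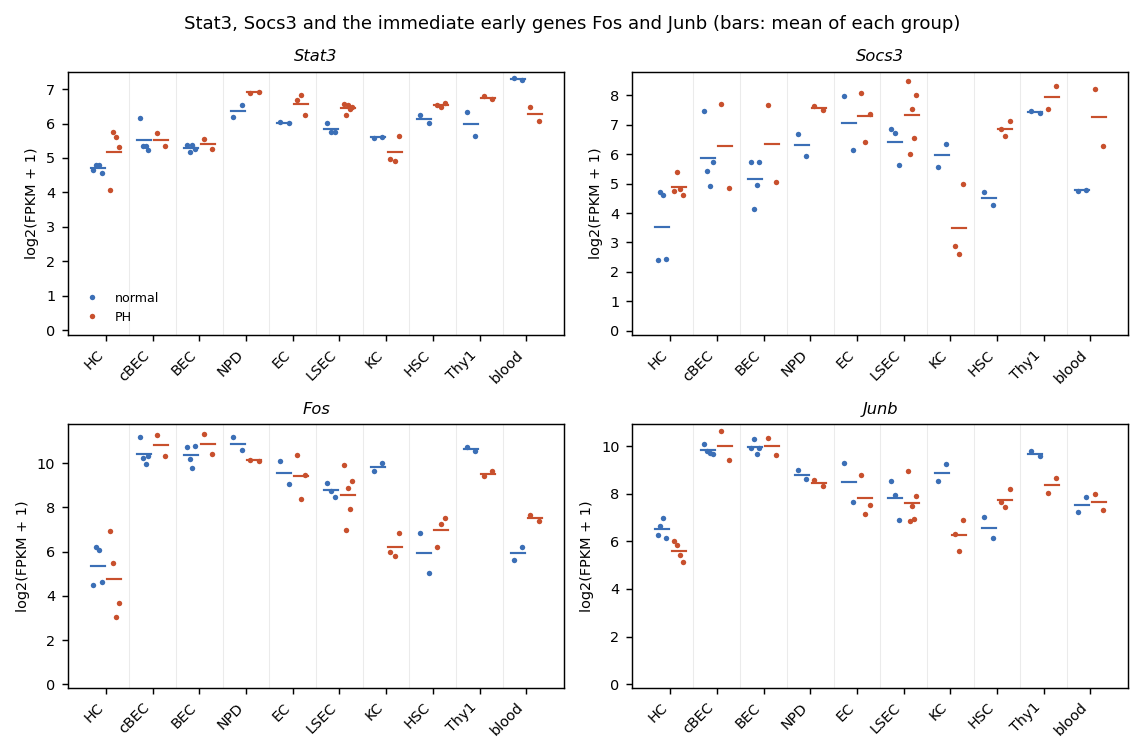
Levels of Stat3, Socs3 and the early genes Fos and Junb in each library, as log2(FPKM + 1), by population, with normal libraries in blue, PH libraries in red and bars at group means. Socs3 spreads over several log2 units within cBEC, BEC and LSEC after PH, where its highest library is also the highest for Fos.

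Marker genes of other cell types moved in the populations with the most calls. In KC the LSEC list (0 of 8 at 0) summed to 4069 to 5462 FPKM in normal and 486 to 762 in PH libraries, and the endothelial list (0 of 8 at 0) to 1670 to 2057 and 324 to 582. The Kupffer list itself summed to 16100 to 17790 and 32150 to 33200 FPKM. In normal liver Il6st and Osmr, which fell in KC, had their highest means in EC and LSEC, and Lifr averaged 126 FPKM in LSEC and 93.0 in EC. Il6, which also fell in KC, was at most 1.63 FPKM in normal EC and 0.114 in normal LSEC. The part of endothelial RNA in the receptor changes in KC was not tested.

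In the libraries labelled blood, the Kupffer list (0 of 8 at 0) summed to 743 to 1068 FPKM in normal and 11530 to 20110 in PH libraries, the LSEC list (0 of 8 at 0) to 804 to 920 and 2864 to 6042, and the lymphoid list (0 of 8 at 0) to 2663 to 2717 and 42.7 to 90.6. All 6 calls in blood, and the F tests that include it, rest on these libraries, and the part of cell composition in them was not tested. Leaving out either normal blood library lost all 6 calls without a change of direction, in fits that leave 1 normal library. In NPD the mesothelial list (0 of 7 at 0) summed to 6152 to 6781 FPKM in normal and 5082 to 5559 in PH libraries. The duct list summed to 2597 to 3826 and 3979 to 4786 FPKM, the stellate list (0 of 8 at 0) to 3281 to 3818 and 1283 to 1371, and the endothelial list (0 of 8 at 0) to 177 to 178 and 55.9 to 61.8. None of these overlapped between normal and PH, and their part in the changes of the 6 genes that passed in NPD was not tested.

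Responses of 9 of the 10 genes differed between populations by the limma F test over all 20 groups (47.8% of all genes tested). Without the blood libraries 6 of 10 did, and Clcf1 (adjusted p = 0.643), Stat3 (0.28) and Socs3 (0.0833) no longer passed. Osmr, Il6, Il6st, Lifr, Osm and Lif passed either way. In normal liver all 10 genes differed between populations, with and without blood, as did nearly all genes (93.3% of those tested). In normal liver 3 genes had a population clear of every other (Osm and Stat3 in blood, Il6st in EC), and after PH also 3 (Osm in blood, Osmr in HSC, Stat3 in NPD). These counts describe ranges of few libraries without a test, and the share over all genes is not given. The libraries labelled PH blood scored highest for Kupffer cell genes.

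Beyond the 10 genes, the acute phase list, whose genes STAT3 is known to drive in hepatocytes, had its largest count of rises in HC. Of its 19 tested genes 13 rose and 0 fell, where 6.19% of all genes were called. The median change was 1.87 against -0.07 for all genes. Saa2 and Saa1, the serum amyloid A genes, rose by 9.30 (SE 0.25, adjusted p = 2.98e-08) and 6.89 (SE 0.21, adjusted p = 6.31e-08), and Lcn2, encoding lipocalin 2, by 9.27 (SE 0.22, adjusted p = 1.21e-08). Saa2 averaged 38.6 FPKM in normal and 24500 in PH HC. In the same cells Bcl6, a transcriptional repressor, fell by 3.14 (SE 0.57, adjusted p = 0.0116), Zfp36, which destabilises cytokine mRNAs, by 1.23 (SE 0.21, adjusted p = 0.00877) and Stat5b by 1.19 (SE 0.22, adjusted p = 0.012). Elsewhere 2 of 5 tested genes of the acute phase list rose in LSEC (8.46% of all genes called). In BEC 2 of 5 fell (1.81%), in cBEC 1 of 6 fell (0.0681%), and in blood 3 of 8 rose and 4 fell (64.0%). None passed in NPD (0 of 8, 15.2%), KC (0 of 3, 36.8%), EC (0 of 7, 0.0249%), HSC (0 of 7, 0.00853%) or Thy1 (0 of 7, 0.00747%). The list was chosen with earlier results of these data known.

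In the wider list of STAT3 target genes, 12 of 20 tested rose and 0 fell in NPD (median change 1.08 against 0.09, with 15.2% of all genes called). Timp1, a protease inhibitor, rose from a mean of 108 to 1200 FPKM (change 3.67, adjusted p = 0.0181). Bcl3, a member of the IkB family, rose by 2.84 (SE 0.16, adjusted p = 0.00631) and Birc5, encoding survivin, by 2.90 (SE 0.49, adjusted p = 0.024). In HC 3 of 17 target genes rose and 1 fell (6.19% of all genes called), and in LSEC 4 of 19 rose and 2 fell (8.46%). In KC 2 of 18 rose and 6 fell (36.8%), and in blood 11 of 20 rose and 3 fell (64.0%). The counts in KC and blood are near those shares. None passed in cBEC (0 of 19, against 0.0681% of all genes), BEC (0 of 20, 1.81%), EC (0 of 19, 0.0249%), HSC (0 of 19, 0.00853%) or Thy1 (0 of 20, 0.00747%).

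In LSEC, Serpina3n, an acute phase protease inhibitor, rose by 6.42 (SE 0.31, adjusted p = 1.62e-05), from a mean of 0.733 to 141 FPKM. It averaged 191 FPKM in normal and 3260 in PH hepatocytes. The hepatocyte list summed to 0 to 37.1 FPKM in normal LSEC, with 6 of 8 markers at 0. In PH LSEC the list summed to at most 0.367 FPKM, with Alb, Apoa1, Ttr, Serpina1a and Cps1 at 0. Genes high in hepatocytes were more often at exactly 0 elsewhere, so these zeros do not measure hepatocyte RNA, whose part was not tested. Lbp, encoding a lipopolysaccharide binding protein, rose by 1.94 (SE 0.20, adjusted p = 0.00125) and Timp1 by 2.64 (SE 0.35, adjusted p = 0.00284). Cntfr, the receptor subunit for ciliary neurotrophic factor, fell by 3.31 in LSEC (SE 0.57, adjusted p = 0.011) and by 3.90 in KC (SE 0.23, adjusted p = 0.00127). Birc5 and the cyclin gene Ccnd1 fell in LSEC by 2.50 (SE 0.29, adjusted p = 0.00185) and 1.76 (SE 0.31, adjusted p = 0.0106).

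Of 10 kinases, STATs and adaptors of the pathway, 1 rose and 6 fell in KC, and 4 rose and 4 fell in blood, the populations with the largest shares of all genes called (36.8% and 64.0%). In KC Ptpn1, a phosphatase that acts on JAK kinases, rose by 1.03 (SE 0.14, adjusted p = 0.00433). Cish, a relative of Socs3, was listed at 0 in all PH KC libraries and averaged 6.53 FPKM in normal ones. Lcn2 was listed at 0 in every PH cBEC, BEC and blood library, against means of 165, 128 and 63.6 FPKM in normal ones. Lcn2 averaged 5090 FPKM in PH hepatocytes. For widely expressed genes at 300 FPKM or more in PH HC, 6.28% of values in the other PH libraries were 0. No fold is given for Lcn2, and the cause of its zeros was not tested. Among 8 other ligand subunits of the wider family, Ebi3 fell in KC by 0.48 (adjusted p = 0.0374) and Il12a in blood by 2.7 (adjusted p = 0.000984), both named after their values were seen, and none passed elsewhere.

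Genes whose profile over the 20 group means was most like each member are given as a description, over groups that share libraries of the same sorts. For Il6 they were Ifi205 (Pearson r = 0.895), Ptgs2 (0.859), which encodes cyclooxygenase 2, and Pianp (0.795). Osm was closest to the chemokine receptor genes Ccr1 (0.915) and Ccr2 (0.912), and to Clec4e (0.893). Lif resembled Ankrd1 (0.960), Shisa4 and Mex3a, and Clcf1 resembled Pak6 (0.969), Igsf9 and Mboat1. Among the receptors, Il6st was closest to Rapgef5 (0.959), Osmr to Pdlim7 (0.954), Il6ra to Rab7b (0.896) and Lifr to B3galt1 (0.842). Stat3 was closest to Ccnd3 (0.904) and Socs3 to Rin1 (0.845).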

How the data were processed

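RNA sequencing libraries of 10 sorted mouse liver populations were used as FPKM values, which the authors deposited in 1 table with a column for each of the 55 libraries. Bowtie 1.0.0, CASAVA 1.8.2 and the mm9 build are named in the submitters' processing notes, and the counting step is not given in the sources used here. The table's 36141 rows are RefSeq transcripts, and 1 row per symbol was used, the one with the highest mean. FPKM carry no read depth, so no counting interval is given, and differences at low FPKM are the least certain.

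Titles gave each group. For 1 library, PH cBEC 1, the title says PH and the treatment tag normal, and the title was followed. PH was compared with normal within each population in limma (version 3.58.1, under R version 4.3.3), applied to log2(FPKM + 1), two-sided, with trended and robust variances, Benjamini-Hochberg adjustment over all tested genes and an adjusted p threshold of 0.05. Genes needed at least 1 FPKM in as many libraries as the smaller group has. The scale understates changes of low genes. F tests over the 20 groups asked whether responses, or normal levels, differ between populations. The fits were tested on simulated data.

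The members, gene lists and marker lists were chosen with earlier results of these data known. All 10 members are named. Other pathway genes were named if among the 3 largest rises or falls of a population, with a change of at least 1 and no overlap, and some that met this rule are not reported here; Fos and Junb values by library, and genes with zeros, were chosen after their values were seen. Similar genes were the 3 highest correlations among the 11684 genes that reached 10 FPKM in some group mean.

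Alternatives were quantile normalization, a pseudocount of 0.1, upper-quartile scaling, no filter, the sum or mean over a symbol's rows, a single fit of all groups, a replicate block, a restriction to genes under 10 FPKM in hepatocytes and leaving out each library. Chosen after seeing the data were the row with the lowest mean, F tests without blood, and leaving out libraries for the orders of populations. Figures were drawn with Python 3.11.15, pandas 2.3.3 and matplotlib 3.10.9.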

Additional observations from a re-analysis of the deposited data

Results flagged for a closer look

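In 6 of 50 sets of 4 or 5 libraries of 1 group, a single library lay apart from the others for a member, against about 2.5 expected by chance at 1 in 20. For Il6 these were PH HC library 2, at 0.04 FPKM with the others listed at 0, and PH LSEC library 2, at 0.832 FPKM. For Osm it was normal HC library 4, at 0.42 FPKM, and for Clcf1 normal HC library 1, at 0.08 FPKM, the lowest of its group. These 4 values are all under 1 FPKM. Normal cBEC library 1 stood apart for Stat3, at 70.1 FPKM, and for Socs3, at 175 FPKM. Its duct marker sum, 9965 FPKM, was the lowest of the normal cBEC libraries.

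The change after PH differed between populations for 9 genes by the limma F test. The adjusted p-values were 1.57e-12 for Osmr, 8.64e-07 for Il6st, 4.45e-06 for Il6, 7.01e-06 for Lifr, 0.000476 for Osm, 0.00971 for Stat3, 0.0198 for Clcf1, 0.0207 for Lif and 0.0395 for Socs3. Those for Stat3, Clcf1 and Socs3 were above 0.05 once the blood libraries were left out.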

How the results depend on the processing

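No member that passed reversed its direction under any alternative run. Of 1161 alternative values of member changes, 1054 kept their side of the threshold, 76 lost a call and 31 gained one. In HC the count of members that passed, 1, became 2 with rows summed. In BEC the count of 0 became 1 with a pseudocount of 0.1, rows summed or averaged, the row with the lowest mean, or a single fit. In NPD the count of 6 became 2 without a filter and 3 in a single fit. In LSEC the count of 2 became 1 without a filter, with quantile normalization and in a single fit. A single fit gave 3 in HSC and 1 in Thy1, against 0. Leaving out 1 library gave counts of 1 to 2 in HC, 0 to 1 in BEC, 0 to 7 in NPD, 0 to 2 in LSEC, 2 to 8 in KC and 0 to 7 in blood, and 3 to 5 populations that stood clear after PH. Where this left 1 library in a group, that library was assumed to vary like the other group.

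With a replicate block the counts were 3 in BEC, 0 in LSEC, 1 in Thy1, 7 in NPD, 8 in KC and 7 in blood. Same-numbered libraries correlated from -0.672 to 0.574 over 4 HC pairs and from -0.239 to -0.018 over 3 LSEC pairs, so the numbers were not taken to pair libraries. The other populations have 2 pairs, and both correlated best with their own number in cBEC, BEC, NPD, Thy1 and HSC (highest 0.129). In KC the block leaves out PH library 3, which has no partner. The restriction to genes low in hepatocytes leaves out members, so it gave no counts.

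Most groups have 2 or 3 libraries, depth is unknown, and calls in NPD, LSEC and blood, and 4 of 6 in KC, depend on single libraries. The causes were not tested.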
